A study of Rattus norvegicus with 44 samples.

Results

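Transcripts of neonatal rat ovaries treated with bone morphogenetic protein 4 (BMP4) were compared with untreated controls. The comparison used 17 arrays, 3 from BMP4-treated ovaries and 14 from controls, out of 38 arrays of 8 growth factors with the same controls and 44 arrays in the whole series. Members were chosen by treatment label alone. Each array held RNA pooled from 2 to 3 whole ovaries of 1 culture well, taken from different female Sprague-Dawley pups of 1 litter at 4 days of age and kept in organ culture for 2 days, with the medium changed every 24 hours. BMP4 was the human protein at 50 ng/ml, and the control wells received no growth factor. AMH (anti-Müllerian hormone), FGF7 (fibroblast growth factor 7), KITLG (KIT ligand) and PDGFab (platelet-derived growth factor), each given at 50 ng/ml to 3 wells, served as direct comparisons. GDNF (glial cell line-derived neurotrophic factor), LIF (leukemia inhibitory factor) and FGF2 (fibroblast growth factor 2) were given at 50 ng/ml, with 3 arrays each. They are used for levels and for counts of arrays that do not overlap. The labels give 3 arrays for GDNF, whereas the paper states 2 replicates. The question of the comparison was which ovarian transcripts change when BMP4 is added while primordial follicles, single oocytes enclosed by flattened pregranulosa cells, begin to develop into primary follicles.

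BMP4 is a secreted ligand of the transforming growth factor beta superfamily. It binds a pair of receptor kinases of type I (such as BMPR1A and BMPR1B) and type II (such as BMPR2), which phosphorylate SMAD1, SMAD5 and SMAD9. These SMADs join SMAD4 in the nucleus and raise the transcription of Id genes, which encode inhibitors of basic helix-loop-helix factors, and of Smad6 and Smad7, which feed back on the pathway. In the ovary the ligand is made by stromal and theca cells and is known as a survival and maturation signal of early follicles.

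All values are log2 array levels, so that a difference of 1 is a doubling, and a level is not comparable between probe sets. Markers of the labelled tissue were present: in the BMP4 arrays the oocyte genes Zp3 and Gdf9 stood at 11.49 ± 0.34 and 10.15 ± 0.18 (SD, n = 3), and the pregranulosa genes Wt1 and Amhr2 at 10.18 ± 0.03 and 9.32 ± 0.28. Array medians lay between 5.93 and 6.01 in the 38 arrays. The BMP4 arrays correlated with each other at 0.991 to 0.996 and the controls at 0.970 to 0.996, and the median SD of a probe set was 0.115 among BMP4 arrays and 0.197 among controls. No pair of arrays held identical values. The labels do not give the culture day, so the day and the treatment could not be separated.

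Across 27342 probe sets, 75 were called between BMP4 and controls, meaning a Benjamini-Hochberg adjusted p under 0.05 in limma over all probe sets, which is 0.274% of those tested. Of these, 12 were higher (0.0439%) and 63 lower (0.23%) with BMP4. The changes were small, between 0.31 and 0.49 for the probe sets that rose and between 0.22 and 1.09 for those that fell. The probe sets that fell were bright ones, with 57 of 63 above the median level of all probe sets. The number of calls changed with the arrays left out and with the arrays in the fit. No probe set passed when BMP4 replicate 2 or replicate 3 was left out, and 7 passed without BMP4 replicate 1. None passed when the fit held only BMP4 and control arrays. Leaving out 1 control gave 53 to 156 calls, the most without control 2. In the 3 settings with no call in limma, 1626, 1940 and 1923 probe sets had an unadjusted p under 0.05. With 2452 probe sets (8.97%) at an unadjusted p under 0.05, 4.45% higher and 4.51% lower, the individual genes below are described by their values on each array.

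**Figure D1:**
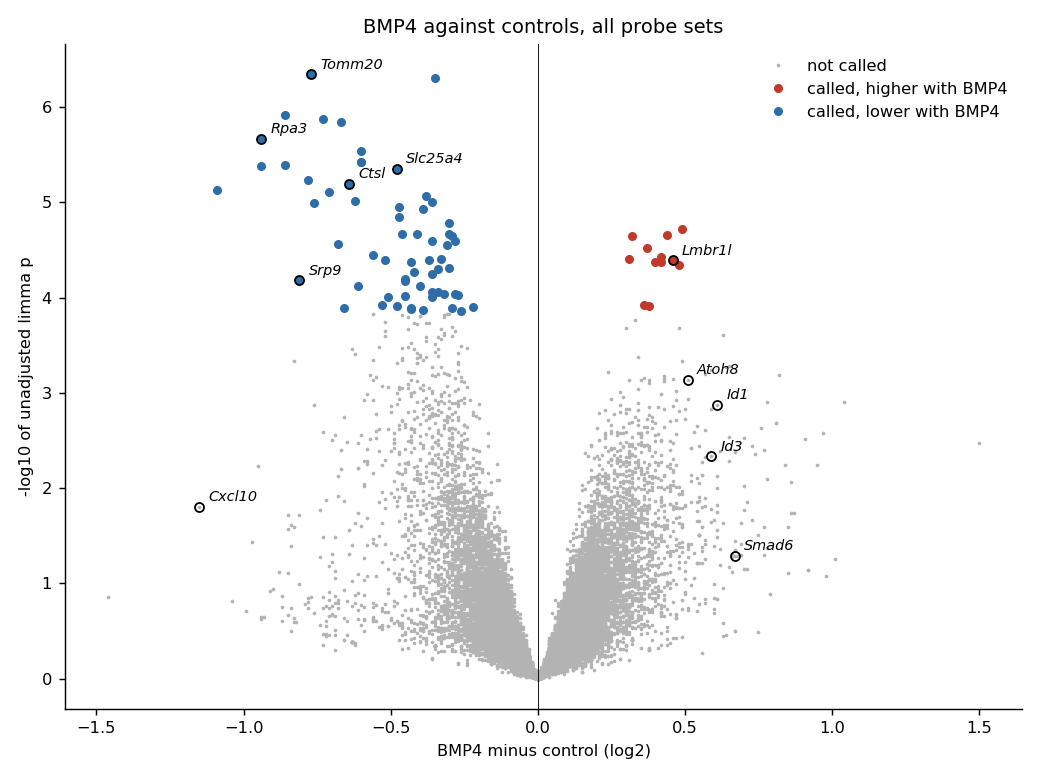
Each point is 1 probe set, with the BMP4 minus control difference (log2) on the x axis and −log10 of the unadjusted limma p on the y axis. The 63 called probe sets on the left (blue) outnumber the 12 on the right (red). The circled targets Id1, Id3, Atoh8 and Smad6 lie on the right at 0.61, 0.59, 0.51 and 0.67 without being called. The largest positive difference of all probe sets is 1.5.

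The BMP-SMAD target genes were the place to look for a direct response, and 0 of the 19 measured members were called. Their median difference was 0.10, against 0.00 over all probe sets, and 13 members had a positive difference, where 7156 of 14324 named genes did. The study criteria, as used here, joined the limits of the study's methods (linear group means that differ by 10 units or more, and their ratio no smaller than 1.2 or no larger than 0.83) to an unadjusted limma p up to 0.05 in place of the methods' t-test. By them 3 members were higher and 0 lower, where 4.48% of all probe sets met them, 2.11% higher and 2.37% lower. With the methods' t-test the 1224 probe sets that met the criteria became 954 on log2 and 956 on linear values, and 3 and 4 target genes were higher. The list the paper reports for BMP4 is much shorter than any of these counts, and the reason was not tested. All 3 BMP4 arrays exceeded every control for 2 members, Id1 and Id3, where 0.333% of all probe sets did so.

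Id1 read 9.61, 9.66 and 9.61 in the BMP4 arrays. In the 14 controls it ran from 8.24 through a median of 9.16 to 9.37. Every BMP4 array was thus above every control, with a difference of 0.61 ± 0.17 (SE) and an adjusted p of 0.155 in limma. The exact two-sided permutation test over the 680 splits of 3 and 14 arrays gave p = 0.0118. Id3, another Id gene, read 9.88, 9.96 and 10.03 against controls from 8.60 through 9.28 to 9.84. Its difference was 0.59 ± 0.19, with an adjusted p of 0.242 in limma and an exact permutation p of 0.00588. Id2 did not share the pattern, at 9.85 ± 0.16 with BMP4, all 3 values inside the control range of 9.58 to 10.11, and Id4 was 6.69 ± 0.21 with BMP4 and 6.76 ± 0.22 (SD, n = 14) in controls.

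The inhibitory SMADs were higher on average but overlapped the controls. Smad6 read 9.08, 8.87 and 9.20 in BMP4 arrays and between 6.79 and 9.26, with a median of 8.50, in controls. The difference of 0.67 ± 0.33 had an adjusted p of 0.561 in limma. Smad7, which blocks type I receptors, read 7.42, 7.04 and 7.38 against a control range of 6.07 to 7.57 with a median of 6.74, a difference of 0.50 ± 0.26 (adjusted p = 0.586 in limma). Atoh8, a helix-loop-helix factor, read 7.21, 6.77 and 6.75 against controls from 6.09 to 6.78, so that only replicate 1 stood clear of the controls. Its difference of 0.51 ± 0.14 had the smallest adjusted p of the list (0.119 in limma, exact permutation p = 0.00441). Bambi, a decoy receptor often raised by BMP signals, was 9.38 ± 0.38 with BMP4 and 9.56 ± 0.37 in controls. The adjusted p of Id1, Id3 and Atoh8 was 0.00738, 0.018 and 0.0101 in limma when arrays were weighted by quality, the one setting in which these 3 passed, while Smad6 and Smad7 passed in no setting.

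The sequence just upstream of the 3 target genes with the smallest p is shown because BMP-activated SMADs are known to bind GC-rich motifs such as GGCGCC and GGAGCC and, with SMAD4, CAGAC. The 250 bases before the annotated start (RefSeq, build GRCr8) are written 5′ to 3′ on the gene's strand, with any match to these motifs on either strand in capitals. Id1 lies on the plus strand (chr3:161671314-161671563), Id3 on the plus strand (chr5:153656041-153656290) and Atoh8 on the minus strand (chr4:105850380-105850629).
Id1: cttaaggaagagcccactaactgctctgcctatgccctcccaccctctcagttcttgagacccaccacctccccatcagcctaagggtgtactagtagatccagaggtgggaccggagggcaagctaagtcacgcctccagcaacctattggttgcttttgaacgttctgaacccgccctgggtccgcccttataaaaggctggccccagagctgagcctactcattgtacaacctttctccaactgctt
Id3: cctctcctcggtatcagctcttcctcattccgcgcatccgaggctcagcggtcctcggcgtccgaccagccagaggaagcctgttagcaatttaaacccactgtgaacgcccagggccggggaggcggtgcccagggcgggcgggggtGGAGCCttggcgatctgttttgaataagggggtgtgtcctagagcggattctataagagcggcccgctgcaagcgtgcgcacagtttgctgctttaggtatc
Atoh8: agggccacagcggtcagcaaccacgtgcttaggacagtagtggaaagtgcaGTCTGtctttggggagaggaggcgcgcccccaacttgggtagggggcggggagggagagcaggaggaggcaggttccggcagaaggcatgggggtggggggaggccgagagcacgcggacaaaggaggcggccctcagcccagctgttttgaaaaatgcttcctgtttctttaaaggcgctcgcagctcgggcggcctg
Id1 held none of these motifs in this window, Id3 held 1 GGAGCC and Atoh8 held 1 CAGAC, read as GTCTG on the strand shown. Among the 14 of 19 target genes matched by symbol to a promoter reaching from 250 bases before to 50 bases past the start, 5 held GGCGCC (35.7%), 7 GGAGCC (50.0%) and 4 CAGAC (28.6%). Among all 33469 promoters GGCGCC was held by 3688, GGAGCC by 27.9% and CAGAC by 50.1%. These matches describe the letters of the windows and no binding was measured.

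**Figure D2:**
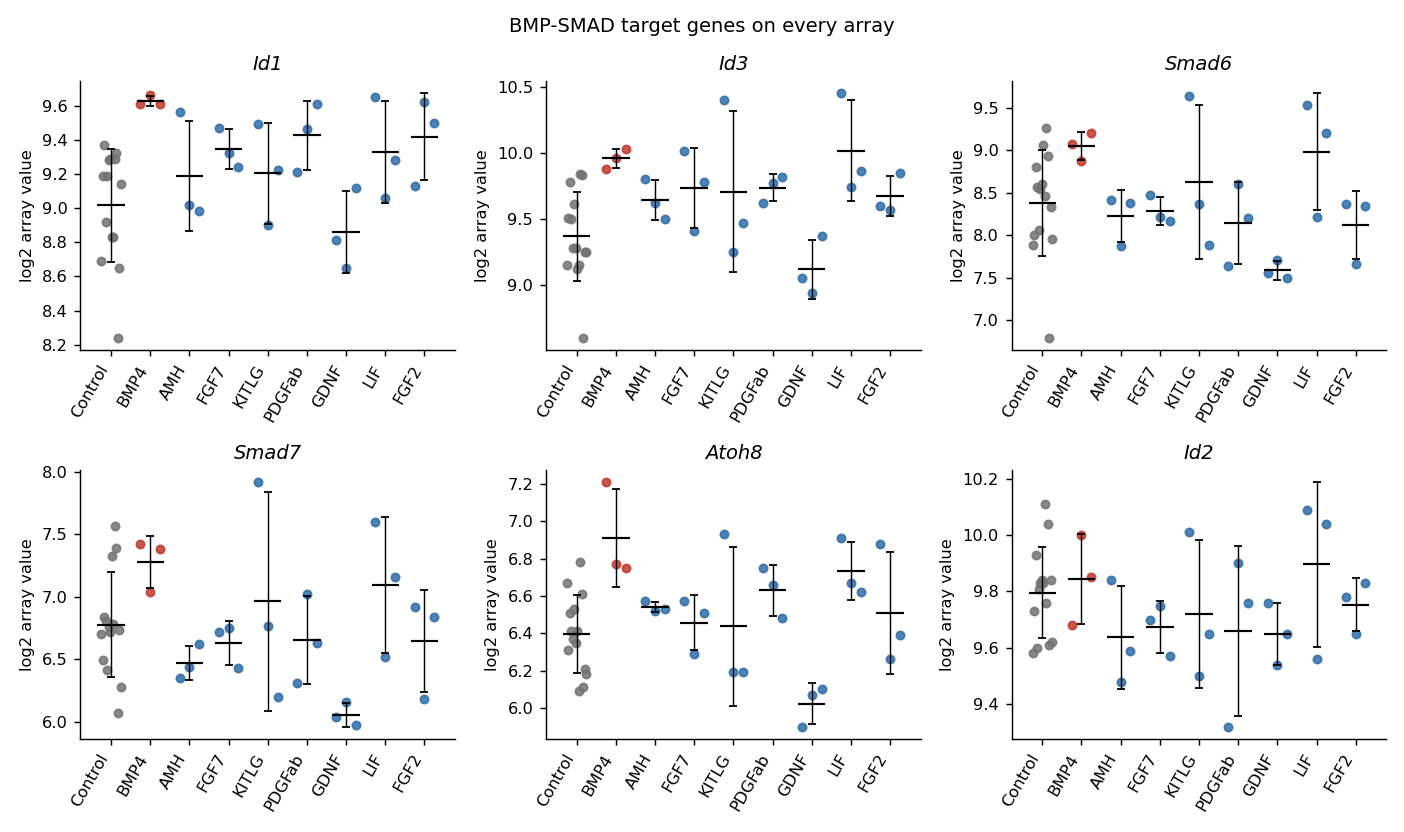
Log2 array value on the y axis for 6 BMP-SMAD target genes in the 14 control, 3 BMP4 and 3 arrays of each other treatment; points are arrays, bars the mean and whiskers the SD. The 3 Id1 points with BMP4 lie between 9.61 and 9.66, above the highest control at 9.37, while those of Id2 lie within the control range.

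The upstream parts of the pathway showed no called gene. Of 16 measured BMP family ligands 0 were called, with a median difference of -0.01. Bmp4 itself read 6.97, 7.49 and 7.33 against controls from 6.24 to 7.96, a difference of 0.02 ± 0.23. The oocyte ligands Gdf9 and Bmp15 were 10.15 ± 0.18 and 10.14 ± 0.45 with BMP4 and 9.85 ± 0.68 and 9.58 ± 0.63 in controls (adjusted p = 0.925 and 0.754 in limma). Bmp3 had the most negative difference of the list at -0.39 ± 0.31. Amh was the most uneven ligand, at 5.30, 7.16 and 7.60 in the BMP4 arrays and 4.59 to 7.96 in controls.

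The receptors showed small differences. Among 10 measured receptors and co-receptors 0 were called and the differences ran from -0.11 to 0.21. Bmpr1a read 10.68, 10.61 and 10.62 in BMP4 arrays against a control median of 10.65, and Bmpr2, the type II receptor for BMP ligands, had the highest difference of the list at 0.21 ± 0.16 (adjusted p = 0.785 in limma). Bmpr1b was 8.77 ± 0.24 with BMP4 and 8.63 ± 0.49 in controls. Of 14 SMAD proteins and partners 0 were called. Smad1 and Smad5, which carry the signal, differed by -0.10 ± 0.10 and 0.12 ± 0.09, and Smad4 by 0.15 ± 0.09. Smad9, which is also a known target of the pathway, differed by 0.43 ± 0.29 (7.53 ± 0.29 with BMP4, 7.10 ± 0.56 in controls). Of 15 extracellular inhibitors and modulators 0 were called, and all differences fell between -0.12 and 0.12. Noggin (Nog), follistatin (Fst) and chordin (Chrd), which bind ligands and keep them from receptors, differed by 0.08 ± 0.09, -0.09 ± 0.16 and 0.12 ± 0.11. Sostdc1, another BMP antagonist, was at 7.02 in BMP4 replicate 1 and at 5.53 and 5.59 in the others.

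Among the 28 named genes called lower, Tomm20, Srp9 and Sec11c act in protein entry into organelles. Tomm20, a receptor of the mitochondrial outer membrane for incoming proteins, had the smallest p of all named genes. It read 9.00, 8.96 and 8.87 in BMP4 arrays and 9.24 to 10.30, with a median of 9.70, in controls. Every BMP4 array was below every control, and the difference was -0.77 ± 0.12 (adjusted p = 0.00675 in limma, ratio of linear means 0.58). Slc25a4, the ADP/ATP carrier of the inner membrane, read 10.70, 10.87 and 10.76 against 10.97 to 11.50, a difference of -0.48 ± 0.09 (adjusted p = 0.0101 in limma). These were the 2 members called, both lower, of 27 mitochondrial import and carrier genes. The list's median was -0.11, and 20 of its members had negative differences, where 7168 of 14324 named genes did and 0.23% of all probe sets were called lower. Slc25a5, the related carrier, read 10.76, 10.45 and 10.47 against 10.58 to 11.14 and was not called (adjusted p = 0.138 in limma).

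Of 44 genes of protein translocation, folding and glycosylation in the endoplasmic reticulum (ER), 3 were called lower and 1 higher. Of all probe sets 0.23% were called lower and 0.0439% higher. Srp9, a subunit of the signal recognition particle that holds back translation until a ribosome reaches the ER, read 7.46, 7.50 and 7.48 against 7.71 to 8.98 in controls. Its difference was -0.81 ± 0.18 (adjusted p = 0.0339 in limma, ratio of linear means 0.55). Sec11c, a catalytic subunit of signal peptidase, read 7.99, 7.97 and 8.06 against 8.16 to 8.97, a difference of -0.60 ± 0.11 (adjusted p = 0.0101 in limma). Pdia6, a disulfide isomerase, read 10.24, 10.39 and 10.35 against 10.41 to 11.04, a difference of -0.41 ± 0.08 (adjusted p = 0.0199 in limma). All 3 genes were below every control on every BMP4 array. Alg3, a mannosyltransferase that builds the N-glycan precursor, went the other way. It read 8.83, 8.67 and 8.72 against 8.07 to 8.62, a difference of 0.42 ± 0.09 (adjusted p = 0.0251 in limma). The list's median was -0.02 and its members were split into 21 positive and 23 negative differences. Other subunits of the signal recognition particle, Srp19 and Srp54a, differed by -0.36 ± 0.13 and -0.30 ± 0.09 without being called.

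In the lysosomal list 2 of 47 members were called, both lower, where 0.23% of all probe sets were called lower. Ctsl, the protease cathepsin L, read 10.61, 10.51 and 10.60 against controls from 10.83 to 11.60, a difference of -0.64 ± 0.12 (adjusted p = 0.0124 in limma). Atp6v1g1, a subunit of the proton pump that acidifies lysosomes, read 10.47, 10.21 and 10.40 against 10.50 to 11.06, a difference of -0.42 ± 0.09 (adjusted p = 0.0296 in limma). Ctsb, cathepsin B, was on the opposite side, at 12.16, 12.22 and 12.19 against 11.72 to 12.12, but was not called (adjusted p = 0.0611 in limma). The median over the list was 0.00.

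Rpa3, the small subunit of the single-strand DNA binding complex of replication, had the largest fall of any called probe set and was measured by a pair of probe sets. The brighter read 7.87, 7.52 and 7.42 against 8.18 to 9.36, a difference of -1.09 ± 0.21 (adjusted p = 0.0134 in limma). The other read 7.93, 7.42 and 7.39 against 8.04 to 8.95, a difference of -0.94 ± 0.16 (adjusted p = 0.00973 in limma). Both were below every control. Rpa3 was the only call among 22 cell division genes, where 0.23% of all probe sets were called lower. Of the 22 genes, 19 had negative differences, where 7168 of 14324 named genes did, and the median of the list was -0.11. The study criteria for a decrease were met by 5, where 2.37% of all probe sets met them. With the methods' t-test on log2 and linear values, 4 and 3 met them. Top2a and Rrm2, made in dividing cells, differed by -0.29 ± 0.11 and -0.31 ± 0.14 without being called. Bccip, a cofactor of BRCA2 and p21, fell by 0.76 on the log2 scale (8.53, 8.52 and 8.42 against 8.80 to 9.79, adjusted p = 0.014 in limma). Sem1, a small proteasome subunit that also binds BRCA2, fell by 0.66, at 8.35, 7.96 and 8.22 against 8.38 to 9.13 (adjusted p = 0.0489 in limma). Nasp, a histone H1 chaperone, fell by 0.43 (adjusted p = 0.0251 in limma).

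Further falls were seen outside these lists. Sptssa, part of serine palmitoyltransferase, which makes sphingolipid bases, read 9.95, 9.65 and 9.87 against 10.22 to 11.11, a difference of -0.71 ± 0.13 (adjusted p = 0.0134 in limma). Selenok, a selenoprotein of the ER, fell on both of its probe sets, by 0.61 and 0.56 on the log2 scale. Gtf2b, the general transcription factor TFIIB, read 8.29, 8.15 and 8.33 against 8.46 to 9.08, a difference of -0.52 ± 0.11 (adjusted p = 0.0251 in limma). Cetn3, a centrosome protein, and Uchl5, a deubiquitinase of the proteasome, fell by 0.51 and 0.48. In all, 28 named genes were called lower.

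In all, 6 named genes were called higher, each above every control on all 3 BMP4 arrays. Lmbr1l, a membrane protein named for its likeness to LMBR1, rose most, from 8.37 ± 0.15 in controls to 8.83 ± 0.05, a difference of 0.46 ± 0.10 (adjusted p = 0.0251 in limma). Alg3 came next. Lhpp, a phosphatase, read 7.86, 7.84 and 7.88 against 7.28 to 7.77, a difference of 0.40 ± 0.08. Tbcel, a tubulin chaperone-like gene, rose by 0.38 and Sppl2b, an intramembrane protease, by 0.37. Ptar1, a prenyltransferase subunit, read 7.61, 7.63 and 7.64 against 7.15 to 7.45 and rose by 0.31. None of these 6 is a member of the target list. Other treatments, set against the same controls, gave differences of like size for some of them. Alg3 differed by 0.43 with PDGFab, 0.39 with FGF2 and 0.41 with KITLG, beside 0.42 with BMP4, and Lmbr1l by 0.41 with PDGFab and 0.39 with FGF7. Sppl2b and Tbcel differed by 0.40 and 0.35 with FGF2.

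Larger differences than these were seen in genes whose controls varied more and that were not called. Among those that passed the study criteria and lay above every control on all BMP4 arrays, Atox1, a copper chaperone, read 7.68, 7.64 and 7.65 against 6.43 to 7.53 (difference 0.64 ± 0.17, adjusted p = 0.104 in limma). Tcl1a, highly expressed in oocytes, read 11.73, 11.81 and 11.73 against 10.15 to 11.70 (0.63 ± 0.26, adjusted p = 0.441 in limma). Plagl1, an imprinted zinc finger gene, read 9.28, 9.42 and 9.28 against 8.37 to 9.12 (0.52 ± 0.17, adjusted p = 0.223 in limma). On the lower side the largest was Cxcl10, an interferon-induced chemokine, at 5.58 ± 0.07 with BMP4 against 5.85 to 7.96 (-1.15 ± 0.45, adjusted p = 0.385 in limma). Dbi, a carrier of acyl-CoA, read 6.23, 6.28 and 6.33 against 6.45 to 7.72 (-0.83 ± 0.21, adjusted p = 0.0967 in limma).

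**Figure D3:**
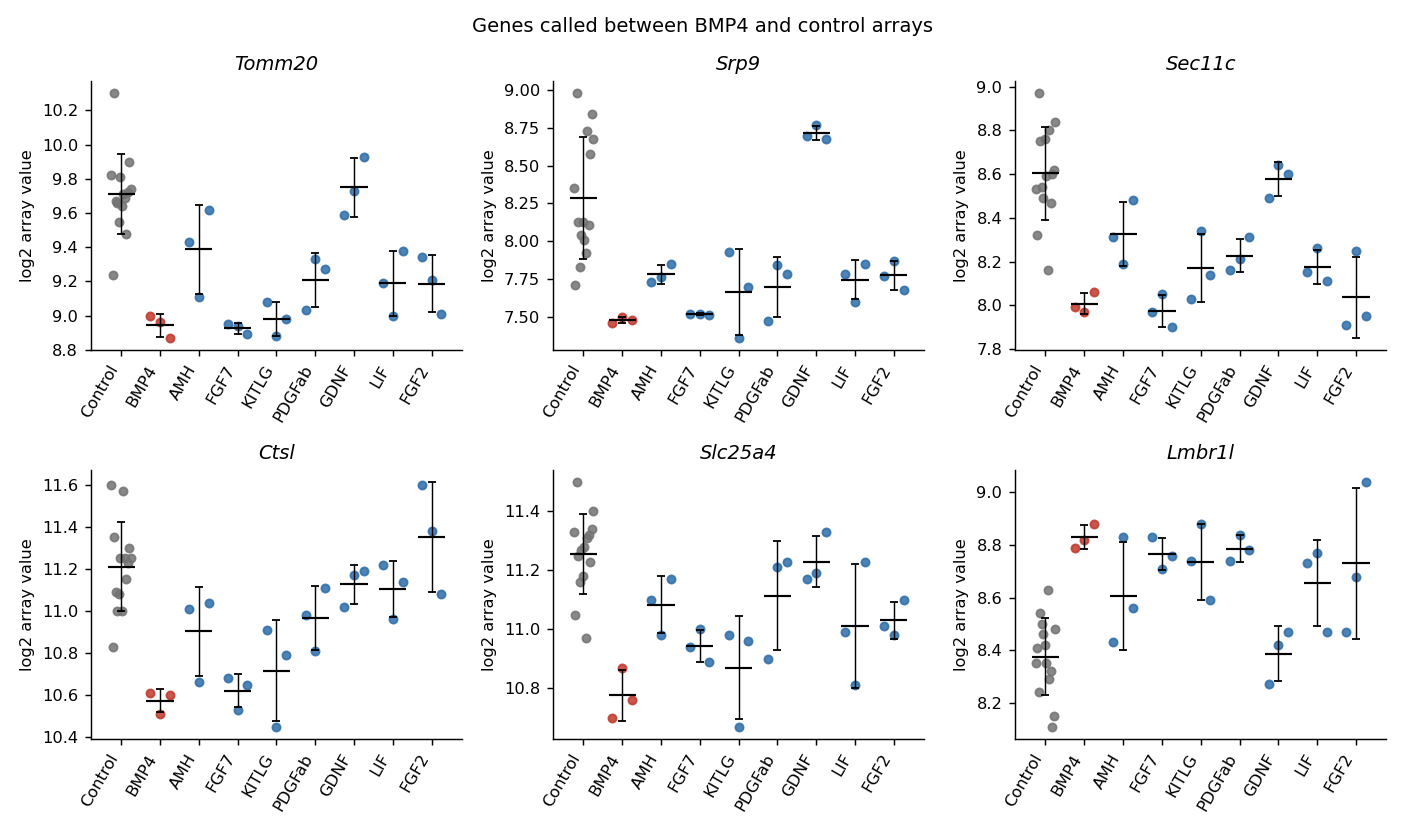
Log2 array value on the y axis for 5 genes called lower (Tomm20, Srp9, Sec11c, Ctsl, Slc25a4) and 1 called higher (Lmbr1l) in BMP4 against controls, with the other treatments beside them; points are arrays, bars the mean and whiskers the SD. The 3 Tomm20 points with BMP4 lie between 8.87 and 9.00, below the lowest control at 9.24, and those of FGF7 and KITLG lie at similar levels.

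Genes that fell with BMP4 also had means below the control mean in several other treatments. Tomm20 was 8.93 ± 0.04 with FGF7 and 8.98 ± 0.10 with KITLG, next to 8.94 ± 0.06 with BMP4, and 9.39 ± 0.25 with AMH, 9.19 ± 0.19 with LIF, 9.21 ± 0.16 with PDGFab and 9.19 ± 0.17 with FGF2. With GDNF it was 9.75 ± 0.17, next to 9.71 ± 0.23 in controls. Bccip was 8.38 ± 0.14 with FGF7, 8.42 ± 0.17 with KITLG and 8.41 ± 0.21 with FGF2, next to 8.49 ± 0.06 with BMP4. Srp9 was 7.52 ± 0.01 with FGF7, 7.67 ± 0.29 with KITLG and 8.72 ± 0.05 with GDNF, and Ctsl was 10.62 ± 0.08 with FGF7 and 11.35 ± 0.26 with FGF2. These groups share the control arrays, so the values are given side by side.

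Direct comparisons between treatments share no controls. BMP4 was compared with AMH, which uses the same SMADs through its own type II receptor, with FGF7 and KITLG, and with PDGFab. FGF7 and KITLG were chosen because their lists were the most like that of BMP4 in earlier results of these data. PDGFab was chosen after the data had been seen. In limma 0 probe sets were called in each of these 4 comparisons, with 842, 343, 421 and 833 at an unadjusted p under 0.05 (3.08%, 1.25%, 1.54% and 3.05%). With 3 arrays on each side the exact permutation test cannot go below 0.10.

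Against AMH, all 3 BMP4 arrays were higher for 7 of the 19 target genes (Id1, Id3, Smad6, Smad7, Atoh8, Msx1 and Dlx5) and lower for 0, where 5.07% of all probe sets were higher on every BMP4 array and 4.6% lower. Smad7 read 6.35, 6.44 and 6.62 in AMH arrays, and BMP4 exceeded them by 0.81 (95% interval 0.14 to 1.48, adjusted p = 1.0 in limma). Smad6 differed by 0.83 (95% interval -0.04 to 1.69) and Id1 by 0.44 (95% interval -0.01 to 0.90). Msx1 and Dlx5 gave dim signals, under the array-wide median of 5.98, at 5.46 ± 0.11 and 3.96 ± 0.04 with BMP4. The corresponding counts of target genes were 4 higher and 0 lower against FGF7 (backgrounds 5.87% and 3.32%), 3 and 0 against KITLG (4.63% and 3.81%), and 5 and 0 against PDGFab (5.02% and 6.12%). Against the remaining treatments 6 were higher and 2, Dlx3 and Hamp, lower than with GDNF (13.8% and 18.8%), 1 was higher and 0 lower than with LIF (8.01% and 5.44%), and 5 were higher and 1, Prdm1, lower than with FGF2 (4.77% and 6.09%). With LIF the levels were close to those with BMP4: Smad6 was 8.98 ± 0.69 and Id3 10.01 ± 0.38 with LIF, beside 9.05 ± 0.16 and 9.96 ± 0.08 with BMP4. Id1 had its highest mean with BMP4 (9.63 ± 0.03), followed by PDGFab (9.42 ± 0.20) and FGF2 (9.41 ± 0.25), and the difference from PDGFab was 0.20 (95% interval -0.25 to 0.66).

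For the 23 called probe sets named by rule, BMP4 differed from FGF7 by -0.19 to 0.21, with 0 in the 95% interval of all 23. From KITLG it differed by -0.46 to 0.21, with 0 in the interval of 22. Both treatments had been chosen for lists like that of BMP4, so likeness to them is no independent result. The exception was Sem1, at -0.46 against KITLG (95% interval -0.86 to -0.06). Against AMH the range was -0.59 to 0.39 and the interval held 0 for 10 of the 23. Against PDGFab it was -0.49 to 0.19 and the interval held 0 for 17. The 23 were selected because the same BMP4 arrays stood apart from the controls. That selection favours differences from other treatments, so these intervals are descriptive and do not test a difference. Tomm20 differed from FGF7 by 0.01 (95% interval -0.31 to 0.33) and from KITLG by -0.04 (95% interval -0.36 to 0.28). Against AMH it differed by -0.45 (95% interval -0.76 to -0.13), with all BMP4 arrays below all AMH arrays (9.43, 9.11 and 9.62). Slc25a4 differed from AMH by -0.31 (95% interval -0.54 to -0.08). None of these differences passed adjustment.

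Arrays of BMP4 and PDGFab with the same replicate number deviated from their group means together, with correlations over probe sets of 0.603, 0.445 and 0.453. Those of BMP4 and AMH correlated at 0.478, 0.361 and 0.112, and those of BMP4 and LIF at 0.215, 0.297 and 0.12. No fit with a block was made for BMP4 against LIF. With the number as a block in a fit of the 6 arrays of both treatments, 12 probe sets (0.0439%) were called against PDGFab. Of these, 10 were lower and 2 higher with BMP4. Against AMH 0 were called. Hsd11b1, which regenerates active glucocorticoid, read 8.79, 8.45 and 8.19 with BMP4 and 10.24, 9.47 and 9.83 with PDGFab (-1.37, adjusted p = 0.0325 in limma with the block and 0.393 without). The controls lay at 8.82 ± 0.37, and all 3 PDGFab arrays exceeded the highest control at 9.42. Eno2, Slc16a3, Hk2, Pgk1 and Ldha, genes of glucose breakdown and lactate export, were lower than with PDGFab by 1.17, 1.10, 0.95, 0.93 and 0.92. Vegfa, an angiogenic factor, was lower than with PDGFab by 0.77. The largest difference of the 12 went the other way, higher with BMP4 by 1.84, on a probe set without 1 gene symbol (adjusted p = 0.00637 in limma with the block). Without the block none of the 12 passed, and Eno2 stood at an adjusted p of 0.804 in limma. Against controls, 0 of 25 glycolysis and low-oxygen genes were called with BMP4. Their median difference from controls was 0.00, with a range of -0.24 to 0.49. With the block in the fit of all 38 arrays 1 probe set was called.

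No gene of the cell type lists was called. Of 20 oocyte genes 0 were called and 1 met the study criteria, Dppa3 (8.43 ± 0.26 with BMP4, 8.87 ± 0.32 in controls). Of all probe sets 2.37% met the criteria for a decrease. With the methods' t-test 1 oocyte gene met them on log2 values and 0 on linear values. Over all 24 probe sets of these genes, 5 met the criteria, all lower, while 13 of the 24 had positive differences. With 1 probe set per gene, 13 of the 20 were positive, where 7156 of 14324 named genes were, and the median was 0.12. The summed linear level of these 20 genes was 14725 to 18749 in BMP4 arrays and 7429 to 20830 in controls. Of 25 pregranulosa and gonadal genes 0 were called, with sums of 8260 to 10238 and 6946 to 11080. In RNA from whole ovaries, fewer cells of a type and less RNA per cell cannot be told apart. Of 16 macrophage genes 0 were called and 14 had positive differences, where 7156 of 14324 named genes did. Their sum was 3275 to 4381 with BMP4, inside the range of 1975 to 4948 in controls. Tyrobp, an adaptor of myeloid receptors, had the largest difference of the list, at 7.12, 6.97 and 6.89 against 5.51 to 7.58. Of 9 surface epithelium genes 0 were called, and keratin 8 (Krt8) read 8.38, 8.07 and 7.71 against 8.09 to 9.83, a difference of -0.68 ± 0.25.

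**Figure D4:**
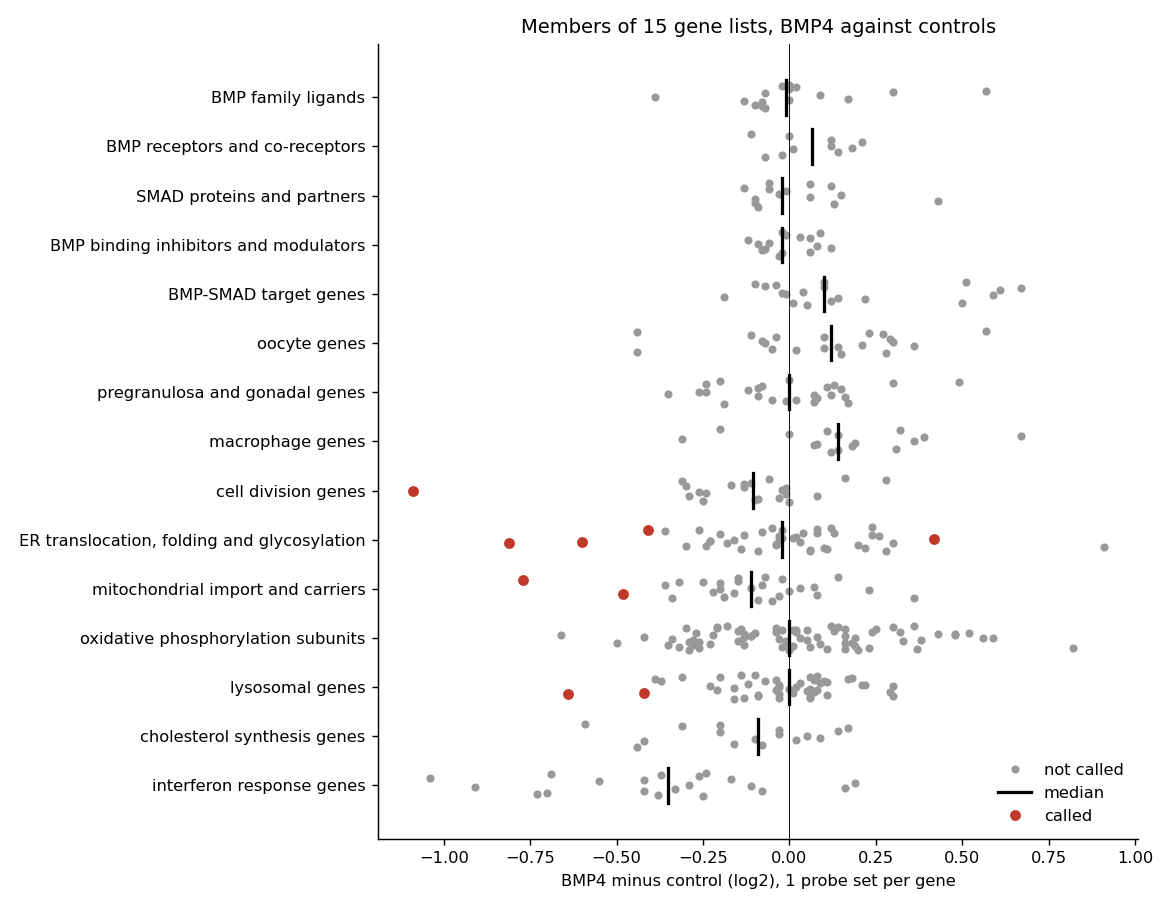
Each point is 1 gene of 15 lists, with its BMP4 minus control difference (log2) on the x axis; red points are called and black bars are list medians. Calls are seen in 4 of the lists shown, the interferon response genes have the lowest median at -0.35, and 4 of the 5 BMP lists have medians between -0.02 and 0.07.

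Among the remaining lists, 0 of 77 subunits of oxidative phosphorylation and 0 of 71 cytosolic and 67 mitochondrial ribosomal proteins were called, with medians of 0.00, -0.03 and -0.03. Subunits of the respiratory chain were not uniform: Cox8a read 11.02, 10.99 and 10.83 against 9.59 to 10.98 (0.82 ± 0.22, adjusted p = 0.115 in limma), while Uqcrb read 11.18, 10.94 and 11.18 against 11.27 to 11.65 (-0.32 ± 0.08, adjusted p = 0.0679 in limma). Of 16 cholesterol synthesis genes 0 were called and 3 met the study criteria, all lower, where 2.37% of all probe sets did. Cyp51, a sterol demethylase, was the largest, at 8.12 ± 0.14 against 8.18 to 9.20 (-0.59 ± 0.21, adjusted p = 0.322 in limma). No member of the list, Cyp51 included, lay below every control on all 3 BMP4 arrays. Of 20 interferon response genes 0 were called and 18 were lower on average, where 7168 of 14324 named genes were. The median difference was -0.35. Their controls varied widely, with Isg15 from 5.33 to 8.71 in controls and 5.94, 5.70 and 5.81 with BMP4.

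Hsd11b1, Axl and Dusp6 were picked by the study from these arrays as genes lower with BMP4, so that their direction is no independent evidence. They differed by -0.34 ± 0.22, -0.13 ± 0.16 and -0.21 ± 0.29. None was called or met the study criteria as used here, and each overlapped the controls. In other signalling pathways 0 of 22 ERK feedback and immediate early genes, 0 of 44 Wnt, 0 of 16 Notch and 0 of 15 PI3K-FOXO3-mTOR genes were called. Notch2 had the smallest p of the Notch list, at 9.50, 9.85 and 9.81 against 9.09 to 9.90 (0.30 ± 0.13, adjusted p = 0.463 in limma).

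**Figure D5:**
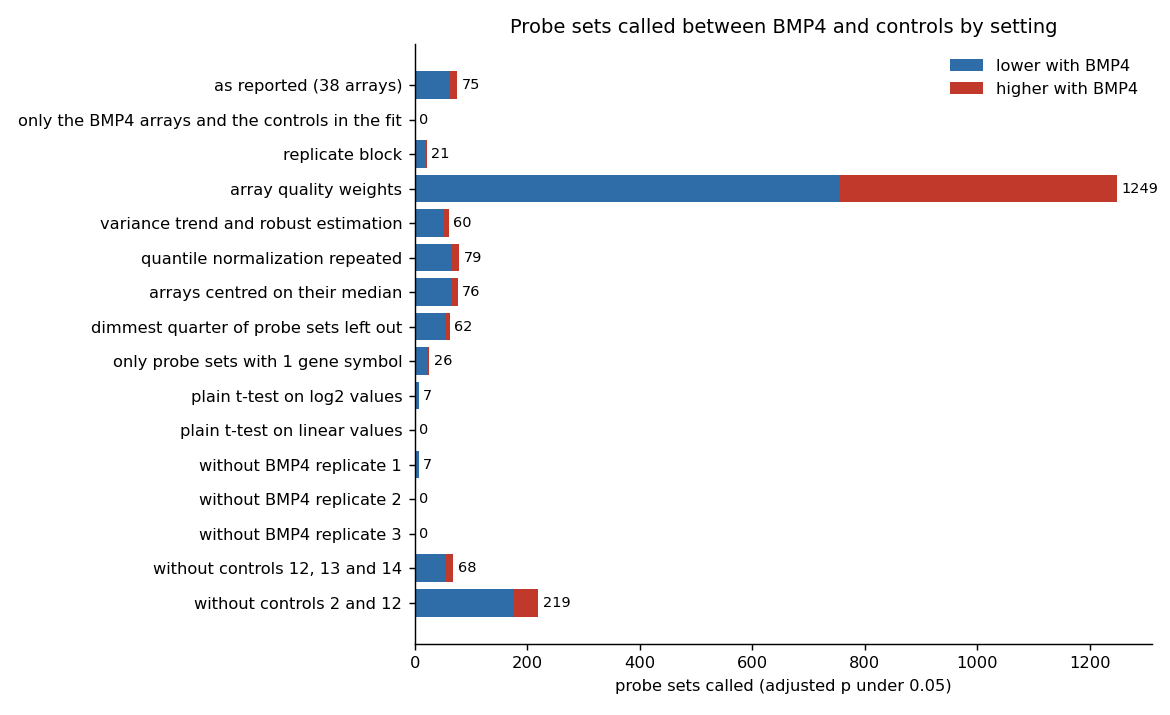
Number of probe sets called between BMP4 and controls on the x axis, by setting of the fit; blue is lower and red higher with BMP4. The count is 75 as reported, 0 in 4 of the other settings shown and 1249 with array quality weights, and calls lower with BMP4 outnumber those higher in every setting that made calls.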

How the data were processed

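RNA was measured on Affymetrix Rat Gene 1.0 ST arrays. The authors deposited log2 values of 27342 probe sets, made by GC-adjusted RMA in Partek Genomics Suite with all arrays of the set processed together. Probe sets were named from the platform annotation: 15097 had 1 gene symbol, 323 several and 11922 none, and only the first were named. Groups came from the sample labels.

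All 38 arrays were fitted together in limma 3.58.1 (R 4.3.3) by lmFit and eBayes, with the contrast BMP4 minus control and no covariate. P-values were adjusted by Benjamini-Hochberg over all probe sets, at a threshold of 0.05. The fit was tested on simulated data. Single genes were also tested by exact permutation over 680 splits, with a smallest possible p of 0.00147. Lists took the probe set with the highest mean level of each gene and were described by counts and medians. The members, the 39 gene lists and the tests were chosen with earlier results of these data known.

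Genes were named in the text by rule: the 15 largest called rises and falls, the 12 largest on each side that met the study criteria outside the range of all controls, members of the 5 BMP lists, and the called members and 3 smallest p of every other list. Genes of cell types and of organelles given for context, and those of the PDGFab comparison, were added after their values were seen. Wells are separate cultures, but p-values measure only the spread between these arrays, and the number of arrays limits the precision. The arrays of connective tissue growth factor and their own controls were left out.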

Additional observations from a re-analysis of the deposited data

How the results depend on the processing

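The 75 calls between BMP4 and controls changed strongly with the setting. They became 0 with only BMP4 and control arrays in the fit, where 1923 stood at an unadjusted p under 0.05 in limma. In that fit the 23 called probe sets named by rule had adjusted p-values in limma from 0.0678 (Tomm20 and Rpa3) to 0.287 (Uchl5). The calls became 21 with the replicate number as a block (9 shared with the 75) and 26 with only probe sets of 1 symbol. A plain t-test gave 7 on log2 values and 0 on linear values (1975 at an unadjusted p under 0.05). Array quality weights gave 1249 (all 75 shared). Same-numbered BMP4 and control arrays did not deviate together (r of 0.248, -0.334 and -0.057), and 0 of 3 BMP4 arrays correlated best with the control of their own number. Under the block, controls without a same-numbered treated array add nothing to the contrast. The 1224 probe sets meeting the study criteria became 675 with only probe sets of 1 symbol. Leaving out 1 array at a time gave 0 to 156 calls, with 0 to 7 for BMP4 arrays (0 without replicate 2 or 3, where 1626 and 1940 stood at an unadjusted p under 0.05) and 53 to 156 for controls, and 939 to 1365 by the study criteria. Leaving out controls 2 and 12 together, the 2 with the lowest weights and chosen after seeing the data, gave 219. Robust estimation with a variance trend, a second quantile normalization, median centring, leaving out the dimmest 25% of probe sets, and leaving out controls 12 to 14 gave between 60 and 79 calls. In the direct comparisons the 0 calls became 1 against FGF7 with array weights, and against PDGFab 12 with the block in 6 arrays and 1 with it in 38 arrays. The block changed no call against AMH, FGF7 or KITLG. Taking all probe sets of a gene left 9 list genes called, as reported. No named probe set changed sign where it was called. The causes were not tested.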

Other observations

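Amh, the hormone of granulosa cells, varied widely among arrays of 1 group. It read 5.30 in BMP4 replicate 1, beside 5.34 with AMH, 4.94 with KITLG, 4.86 with LIF, 5.09 with PDGFab, 4.47 with FGF2 and 4.59 in control 1, all replicate 1. In GDNF and FGF7 replicate 1 it read 7.20 and 7.61. Control 2 read 4.88, and the other 12 controls lay between 6.12 and 7.96. The BMP4 replicates 2 and 3 read 7.16 and 7.60. BMP4 replicate 1 also differed from the other BMP4 arrays in Plet1, an epithelial surface gene (8.29 against 6.03 and 5.20), and in Lhcgr, the luteinizing hormone receptor (7.50 against 5.86 and 5.76). This pattern was seen after the data were examined and its part in the results was not tested.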
